A study of Mus musculus with 3 samples.

Results

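The genes that encode the proteins of the mitochondrial ribosome were examined in RNA bound to tagged ribosomes from the mouse dentate gyrus. Members were all gene symbols made of Mrpl or Mrps, a number and at most 1 of the letters a to c, which gave 77 of the 32531 genes with a row. The study has 1 group of 3 libraries, called replicates 1 to 3, from C57BL/6J mice of the line Penk-TRAP NIDA186, whose age the labels do not give. These mice carry an EGFP/Rpl10a transgene, a fluorescent tag on a protein of the cytosolic ribosome, named for the enkephalin gene Penk, whose regulatory DNA drives such transgenes. All 3 libraries were immunopurified from untreated mice and hold no unbound RNA for comparison. Nothing in the labels tells whether the replicates were separate or pooled animals, and their differences may be technical.

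Mitochondria hold a ribosome of their own, which translates the few proteins of the respiratory chain that mitochondrial DNA still encodes. It has a small subunit, which reads the mRNA, and a large subunit, which joins the amino acids. All of its proteins are encoded in the nucleus, translated on cytosolic ribosomes and imported. Tagged cytosolic ribosomes can therefore carry these mRNAs, whereas the mitochondrial ribosome itself holds no tag. By the place of the protein in the ribosome, 50 members belong to the large subunit, among them Mrps18a and Mrps30 despite their names, and 26 to the small subunit. Mrps36 is the remaining member, and its protein is now known as a part of the oxoglutarate dehydrogenase complex.

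The members share features of their starts that the symbols do not use. In the RefSeq promoter windows of GRCm38.p6, which span 300 bases around a start, 74 windows of 68 members were found. The letters CCGGAAG, the core bound by ETS factors such as GABPA, stood on either strand in 33.8% of the members' windows, against 11.6% of the windows of all protein-coding genes. CATGCGC, a part of the site of the respiratory factor NRF1, stood in 10.8% of the members' windows, against 4.80% of all. AAGATGG, a core of the YY1 site, stood in 17.6% of the members' windows, against 6.24% of all. GGGCGG, the SP1 core, was at 52.7%, against 46.2%, and TATAAA at 6.76%, against 12.6%. At least 1 of the NRF1, ETS and YY1 strings was present in 50% of the members' windows and in 20.5% of those of all protein-coding genes. A match is a string of letters and no measured site, and windows of 1 gene can overlap.

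These 5 stretches of 100 bases end just before the start that RefSeq gives for a member, which can differ from the GENCODE start by some bases, and are shown because they hold the strings named above or belong to a pair of members. Each is written 5′ to 3′ on the strand of the gene, with the matched letters in capitals.
Mrpl9 (chr3:94443236-94443335, plus strand, NRF1 letters on both strands, overlapping): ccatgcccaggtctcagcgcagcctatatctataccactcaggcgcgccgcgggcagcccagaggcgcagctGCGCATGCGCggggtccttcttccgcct
Mrpl17 (chr7:105811088-105811187, minus strand, SP1 and NRF1 letters on the opposite strand): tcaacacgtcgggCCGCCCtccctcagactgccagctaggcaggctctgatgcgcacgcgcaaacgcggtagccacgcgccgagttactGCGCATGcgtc
Mrps22 (chr9:98601680-98601779, minus strand, ETS letters): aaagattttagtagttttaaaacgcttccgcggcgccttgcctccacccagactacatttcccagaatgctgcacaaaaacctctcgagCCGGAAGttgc
Mrpl52 (chr14:54426809-54426908, plus strand, YY1 letters, then ETS letters on the opposite strand): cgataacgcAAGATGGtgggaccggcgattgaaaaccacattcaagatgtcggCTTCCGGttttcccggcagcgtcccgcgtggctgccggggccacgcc
Mrps11 (chr7:78783031-78783130, plus strand, SP1 letters): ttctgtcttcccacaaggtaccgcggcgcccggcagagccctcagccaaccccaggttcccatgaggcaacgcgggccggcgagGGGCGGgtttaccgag

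Many members start head to head with another gene. In GENCODE vM21 on GRCm38, 33 of 77 members (42.9%) had the start of a protein-coding gene on the opposite strand within 1000 bases, against 10.9% of all protein-coding genes. Pairs that overlap at their starts were counted too. Mrps11 and Mrpl46 are such a pair, and the last stretch above lies inside the annotated Mrpl46 gene. Mrps11, a small-subunit protein, had 0, 82 and 8 counts in replicates 1 to 3, and Mrpl46, a large-subunit protein, had 2, 61 and 29. Of the exon bases of Mrpl46, 12.2% also belong to Mrps11, and without strand reads there cannot be assigned. Mrps12, a protein of the decoding centre, lies 172 bases from Sars2, the mitochondrial seryl tRNA synthetase. Mrps12 had 0, 217 and 16 counts, and Sars2 had 0, 31 and 3. The starts of Mrpl36 and Ndufs6, a subunit of respiratory complex I, lie 29 bases apart, and the genes overlap there. Of the exon bases of Mrpl36, 2.58% also belong to Ndufs6. Mrpl36 had 1, 760 and 80 counts, and Ndufs6 had 0, 306 and 85. In these 3 pairs each gene had at most 2 counts in replicate 1. Other partners did not share the members' low counts there. Mrpl47 had 2, 267 and 27 counts, and its neighbour Ndufb5, also of complex I, had 885, 1102 and 801. Mrps27 had 8, 100 and 158 counts, and its neighbour Ptcd2, a pentatricopeptide repeat protein, had 138, 403 and 191. Of the exon bases of Mrpl47, 24.2% also belong to Ndufb5 or Actl6a. Of those of Mrps27, 24.2% also belong to a gene other than Ptcd2. The counts of both members are therefore uncertain. These 5 pairs were chosen after their values were seen, as pairs in which both genes work in mitochondria.

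**Figure D1:**
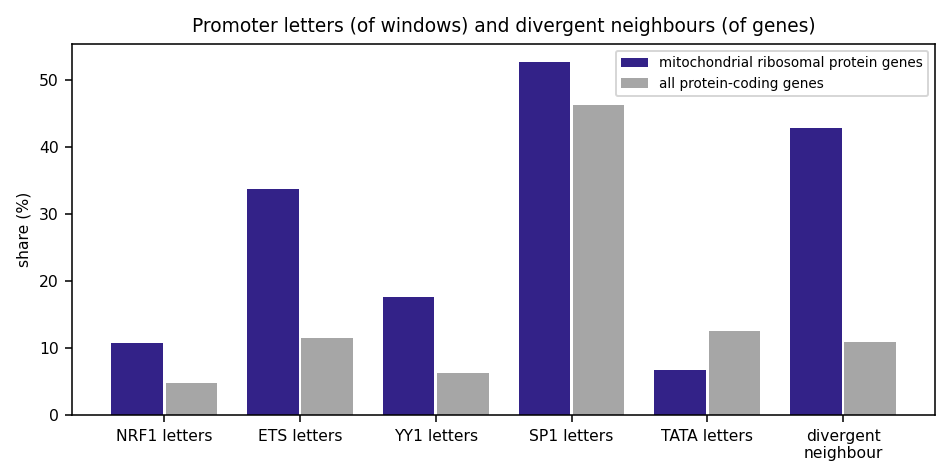
Share in percent of promoter windows that hold each string of letters, on either strand, and share of genes with a divergent protein-coding start within 1000 bases, for mitochondrial ribosomal protein genes (dark bars) and all protein-coding genes (grey bars). ETS letters stood in 33.8% against 11.6% of windows, and divergent neighbours in 42.9% against 10.9% of genes.

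The libraries held 5348761, 19195559 and 11059982 counts on genes, which were 16.3, 38.2 and 21.1% of the reads listed for them. Replicate 2 was thus the deepest library and the one with the largest share of reads on genes. Of 8 granule cell markers such as Prox1, 6, 8 and 7 had at least 10 counts in replicates 1 to 3, so the labelled tissue's defining cells were represented. Microglial markers summed to 3.30, 6.59 and 20.9 CPM, which are counts scaled for depth. Astrocyte markers summed to 3025, 1341 and 3114 CPM and granule cell markers to 1950, 2202 and 1023 CPM. Pan-neuronal markers summed to 7252, 12576 and 7893 CPM, and endothelial and pericyte markers to 411, 898 and 312 CPM. In replicate 2, in which the members were highest, the astrocyte sum was thus the lowest and the granule cell, pan-neuronal and endothelial sums were the highest. GABAergic markers summed to 218, 114 and 260 CPM and oligodendrocyte markers to 820, 704 and 1120 CPM, both lowest in replicate 2. Not all lists had medians in the same order of replicates as their sums. The median pan-neuronal marker was lowest in replicate 2, at 67.0, 59.0 and 93.5 CPM per kb of exon in replicates 1 to 3. Snap25, the highest of that list, was at 783, 1601 and 786. The median oligodendrocyte marker was lowest in replicate 1, at 23.6, 28.8 and 44.9 CPM per kb. So was the median endothelial and pericyte marker, at 1.27, 5.65 and 1.76. The median microglial marker was highest in replicate 2, at 0, 0.207 and 0.057 CPM per kb. The median GABAergic marker was highest in replicate 1, at 12.7, 5.39 and 8.19. The part of cell types or RNA quality in what follows was not tested. In RNA from a tissue, fewer cells of a type and less RNA per cell cannot be told apart.

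Detection of the mitochondrial ribosomal protein genes differed widely between the libraries. At least 10 counts were found for 29, 74 and 55 of the 77 members in replicates 1 to 3, or 37.7, 96.1 and 71.4%. Among all protein-coding genes with a row the shares were 39.2, 61.8 and 53.0%. The members were thus close to the share of all genes in replicate 1 and above it in the other libraries. With all libraries thinned to the depth of replicate 1, 29, 70 and 47 members had at least 10 counts, against 39.2, 55 and 49.2% of all protein-coding genes. With equal gene counts the order of the libraries was thus as before, while their share of reads on genes still differed. All 3 libraries had at least 10 counts for 25 members (32.5%), against 36.3% of all protein-coding genes.

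**Figure D2:**
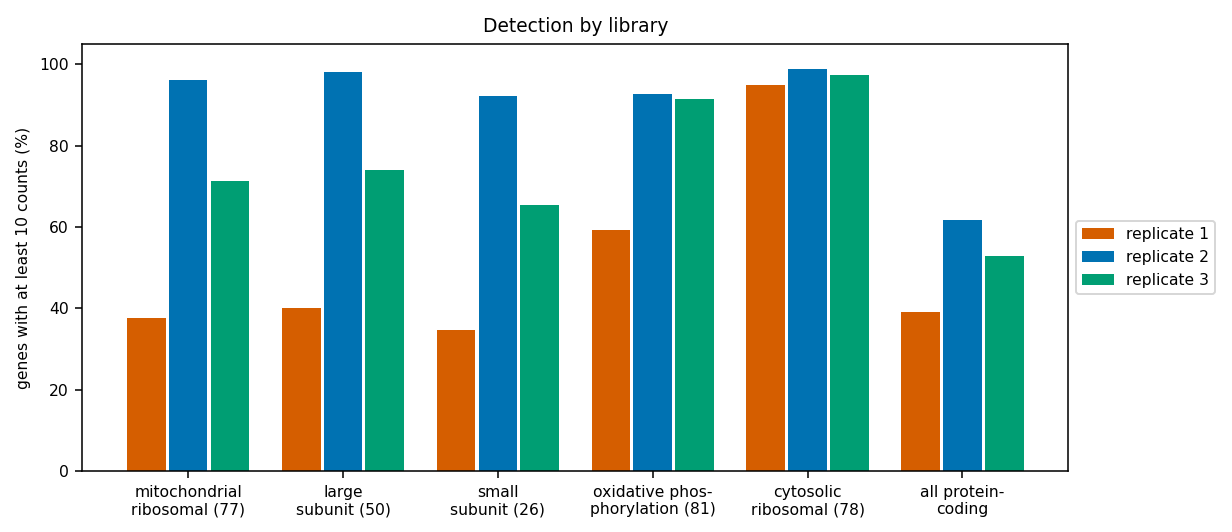
Share in percent of genes with at least 10 counts in each library, for the members, their subunits and other gene lists, with the number of genes in each list in brackets, and for all protein-coding genes. The members stood at 37.7, 96.1 and 71.4% in replicates 1 to 3, whereas cytosolic ribosomal protein genes stayed at 94.9% or above.

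The cytosolic ribosomal protein genes, a like-sized family of short housekeeping genes, had at least 10 counts for 74, 77 and 76 of 78 members. Of 81 nuclear genes of oxidative phosphorylation, 48, 75 and 74 reached it. Median exon lengths were 2255 bases for the mitochondrial ribosomal, 1776 for the cytosolic ribosomal and 1631 for the oxidative phosphorylation genes, and 5594 for the genes tested below. Both other lists had shorter exons and more genes detected in replicate 1. Among the 77 members, Spearman correlations of counts with exon length were 0.25, 0.21 and 0.33 in replicates 1 to 3. The part of exon length in detection was not tested. As a share of gene counts, the members made up 0.0639, 0.158 and 0.0725% in replicates 1 to 3. The exact 95% binomial intervals, which cover counting error only, were 0.0617 to 0.0660, 0.156 to 0.160 and 0.0709 to 0.0741%. In replicate 1 the genes Mrpl37, Mrpl30 and Mrpl4 alone held 36% of the members' counts, whereas the 3 leading members of replicate 2 (Mrpl17, Mrpl39 and Mrpl3) held 14% there.

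Members with many counts in replicate 2 were often at or near 0 in replicate 1. Of 66 members with at least 100 counts in replicate 2, 18 (27.3%) had 0 counts in replicate 1, against 10.5% of all genes over that mark. In replicate 3, 2 of the 66 (3.03%) had 0 counts, against 2.71%. Under 10 counts in replicate 1 were 38 of the 66 (57.6%), against 25.7% of all genes, and 14 (21.2%) were under 10 in replicate 3, against 7.38%. Since replicate 2 is the deepest library and the one in which most members were highest, this choice of genes favours lower values in the others, for the members and for all genes. With at least 100 counts in replicate 3 instead, 11 of 25 members (44%) were under 10 in replicate 1, against 18.9% of all genes, and 0 were under 10 in replicate 2, against 1.47%. With at least 100 counts in replicate 1, 0 of 10 members were under 10 in replicate 2, against 1.63%, and 1 (10%) in replicate 3, against 3.79%. These choices were added after seeing the data. Among genes between 100 counts and the highest member in replicate 2, the shares of all genes were 13.6 and 3.53% at 0 in replicates 1 and 3, and 33.1 and 9.61% under 10 in replicates 1 and 3. A count of 0 allows up to 3 counts, or 0.707, 0.131 and 0.257 CPM in replicates 1 to 3. Mrpl50, a mitochondria-specific protein of the large subunit, had 0, 864 and 4 counts. At the level of replicate 2, replicate 1 would have held 160 counts of it. Mrpl57, of the large subunit, had 4, 1109 and 65 counts, and Mrps14, of the small subunit, 2, 1094 and 515. Mrpl50, Mrpl57 and Mrps14 were chosen after their values were seen. The highest CPM of the 3 libraries fell in replicate 2 for 51 of 76 members with a count (67.1%), against 43.0% of all genes. It fell in replicate 1 for 13 (17.1%, against 25.8%) and in replicate 3 for 12 (15.8%, against 31.2%).

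**Figure D3:**
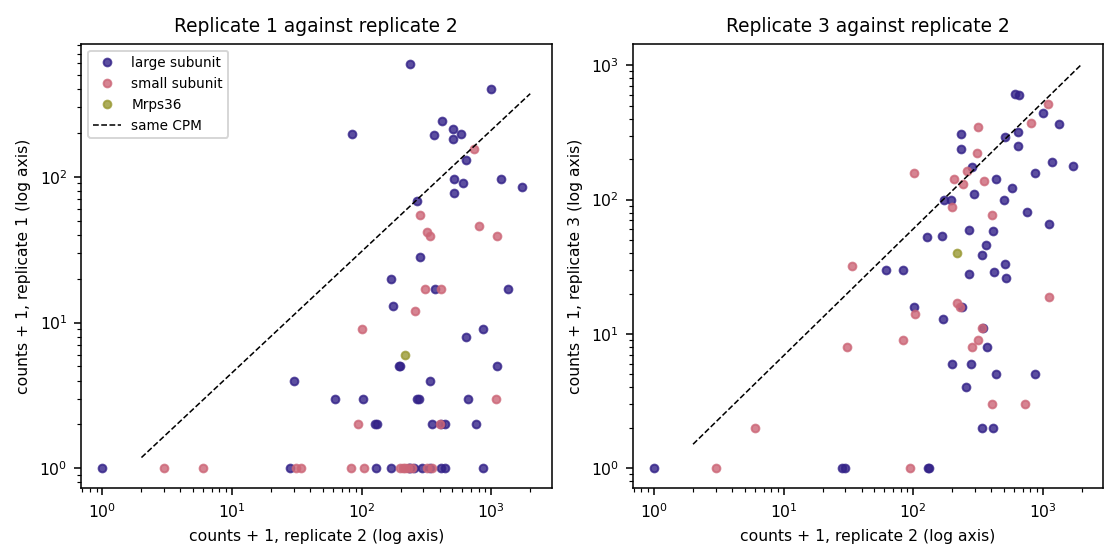
Counts plus 1 of each member in replicate 1 (left) and replicate 3 (right) against replicate 2, on log axes, with the dashed line at equal CPM. Of the 66 members with at least 100 counts in replicate 2, 18 lie at 0 counts in replicate 1.

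In all, 28 members had 0 counts in at least 1 library. At 0 were 25, 1 and 7 members in replicates 1 to 3, or 32.5, 1.30 and 9.09%, against 48.6, 31.7 and 39.4% of all protein-coding genes. Among large-subunit genes 9 were at 0 in replicate 1 alone. These were Mrpl13 with 233 and 308 counts in replicates 2 and 3, Mrpl15 with 237 and 15, Mrpl27 with 436 and 4, Mrpl28 with 337 and 38, Mrpl41 with 411 and 1, Mrpl45, which tethers the ribosome to the inner membrane, with 167 and 53, Mrpl50, Mrpl55 with 253 and 3, and Mrps30 with 294 and 109. Among small-subunit genes 12 were at 0 in replicate 1 alone. Besides Mrps11 and Mrps12, these were Mrps6 with 228 and 15 counts, Mrps15 with 197 and 87, Mrps16 with 33 and 31, Mrps18b with 5 and 1, Mrps18c with 316 and 8, Mrps21 with 243 and 129, Mrps25 with 207 and 142, Mrps28 with 30 and 7, Mrps33 with 351 and 137, and Mrps35 with 103 and 13. Counts in replicate 2 alone were found for Mrpl23 (128), Mrpl24 (27), both near the exit tunnel of the large subunit, and Mrps34 (2). At 0 in replicate 3 alone were Mrpl14, with 1 and 131 counts in replicates 1 and 2, Mrpl54, with 3 and 29, and Mrps10, with 1 and 93. Mrpl53 had 0 counts in each library. By subunit, 13 of 26 small-subunit and 12 of 50 large-subunit genes were at 0 in replicate 1.

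Some of these low counts lie where reads are hard to assign. Of the exon bases of Mrpl53, 88.0% also belong to other annotated genes, as do 77.8% of those of Mrps34, 30.5% of Mrps18b and 26.3% of Mrpl24. Mrps18b has in addition a copy in Gm13552 over 38.6% of its transcript at 99.8% identity, and Mrpl27 a copy in Gm6304 over 59.1% at 98.9%. In all, 19 members share at least 20% of their exons with another gene or have a near-identical copy, at 95% identity or more, over at least 20% of a transcript. Their counts are uncertain. Mrpl50, Mrpl57 and Mrps14 are not among the 19.

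**Figure D4:**
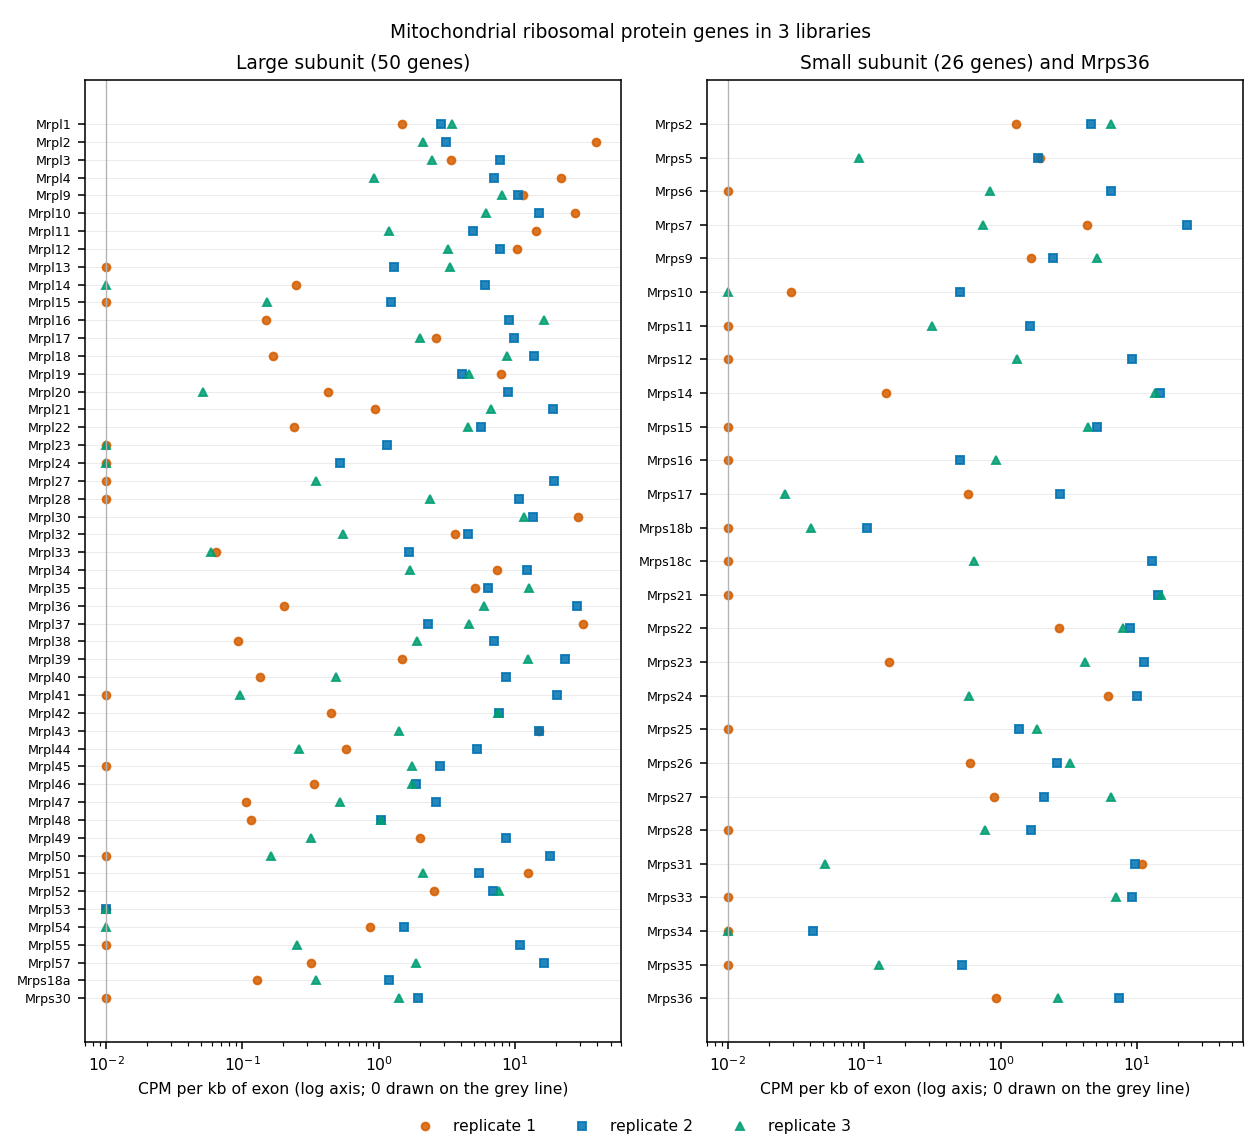
Level of each of the 77 members in CPM per kb of exon on a log axis, with 1 symbol for each library and 0 drawn on the grey line. Most members are highest in replicate 2 (squares), and 25 members lie at 0 in replicate 1 (circles).

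Levels were compared between genes as CPM per kb of exon, since longer genes collect more reads. The median member stood at 0.248, 6.33 and 1.69 CPM per kb in replicates 1 to 3, against 5.52, 6.36 and 6.15 for the median tested gene. On the log2 scale the median member differed from the median tested gene by -3.80, -0.0041 and -1.78, and averaged -1.86 ± 1.90 (SD, n = 3). Per kb of exon, the median member thus lay at the median tested gene in replicate 2 and well below it in the others. In replicate 1 the median member had 2 counts, so its log2 difference there depends on the prior count. The comparison is uneven, since tested genes had passed a filter on low counts and the members here had not; without the filter the mean difference was 0.068. With the filter kept, the mean difference was -0.40 without replicate 1 and -3.39 with no length correction. For cytosolic ribosomal protein genes the log2 differences were 1.60, 1.62 and 1.80, and for oxidative phosphorylation genes -1.02, 1.80 and 0.30. The range between libraries was therefore largest for the mitochondrial ribosomal and smallest for the cytosolic ribosomal genes among these 3 lists.

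The median large-subunit gene lay above the median small-subunit gene in each library. The medians were 0.379, 6.91 and 1.75 CPM per kb for the large subunit, against 0.0146, 3.67 and 0.880 for the small subunit. The large-minus-small difference of the medians was 1.26, 0.97 and 0.97 on the log2 scale and averaged 1.07 ± 0.17 (SD, n = 3), with no test. In replicate 1 the small-subunit median rests on genes at 0 or 1 count, so its difference depends on the prior count. The SD depends on the settings too, at 1.16 with a prior count of 0.5 and 0.78 with no length correction. The highest large-subunit gene stood at 39.3, 28.6 and 16.2 CPM per kb in replicates 1 to 3, and the highest small-subunit gene at 10.96, 23.4 and 14.9. The ranges of the subunits thus overlapped. The large-subunit maxima were higher, but they were taken over 50 genes against 26. In replicate 1 the highest was Mrpl2, which had 3.10 and 2.12 CPM per kb in replicates 2 and 3. Members of families shared with bacterial ribosomes (46 genes) and mitochondria-specific members (30 genes) had like medians. They were at 0.244, 6.18 and 1.504 CPM per kb for the shared families and 0.235, 6.13 and 1.58 CPM per kb for the mitochondria-specific genes. Split by subunit, the shared families had medians of 0.938, 7.01 and 2.36 CPM per kb for the large subunit (29 genes). For the small subunit (17 genes) they were 0, 4.61 and 0.765. Mitochondria-specific medians were 0.319, 6.81 and 1.40 for the large (21 genes) and 0.151, 2.58 and 3.20 for the small subunit (9 genes). Among the mitochondria-specific genes the order of the subunits was thus reversed in replicate 3. None of these contrasts was tested.

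**Figure D5:**
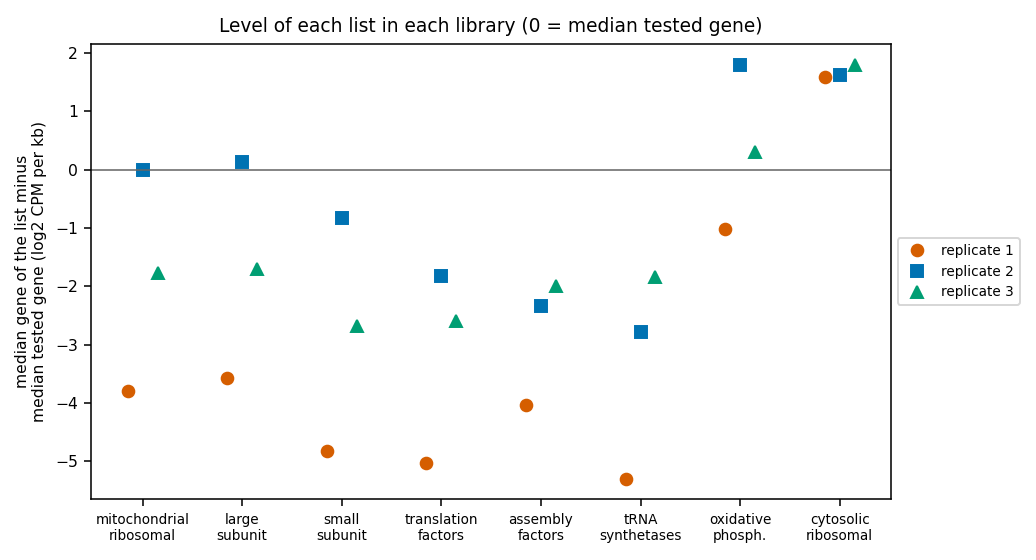
Median gene of each list minus the median tested gene, in log2 CPM per kb, with 1 symbol for each library. The members span -3.80 to about 0, and the cytosolic ribosomal protein genes 1.60 to 1.80.

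The level of single genes against the median tested gene was tested with limma, over 8141 genes that passed the filter and had a length. The filter asks for about 10 counts in each library, scaled to depth, and kept 29 of 77 members, of which 21 belong to the large and 7 to the small subunit, with Mrps36. It kept 38.2% of members with a count, against 55.1% of protein-coding genes with a count. It removes members that were lost in a single library, so the 29 do not stand for the family. Of them, 0 lay above the median tested gene by more than the log2 threshold of 1 at an adjusted p of 0.05, where 9.59% of all tested genes did. Below it lay 0 members, where 3.60% of all tested genes did. At an unadjusted p under 0.05 the limma counts were also 0 above and 0 below, against 14.6 and 9.30% of all tested genes. With DESeq2 size factors both counts were 0 as well. Subtracting each library's median tested gene removes nearly all effect of size factors, so this is no separate check. The fitted levels ran from -1.79 to 1.46 with standard errors of 0.52 to 0.86, and the lowest adjusted p was 0.465. A p above the threshold does not show that these genes equal the median gene.

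Among large-subunit genes Mrpl30 had the highest fitted level. Mrpl30 (chromosome 1, 37890477 to 37898535, plus strand) had 28.9, 13.5 and 11.6 CPM per kb in replicates 1 to 3 and averaged 18 ± 9.50 (SD, n = 3). Its level was 1.46 (SE 0.52, adjusted p = 0.502, limma), higher than the median gene in 3 of 3 libraries. Mrpl10, which anchors the stalk that recruits translation factors, had 27.2, 14.9 and 6.06 CPM per kb and a level of 1.17. Replicate 3 was the lowest for both genes. Mrpl9, at the base of the L1 stalk, had 11.3, 10.4 and 7.94 CPM per kb, the narrowest range of the tested members at 0.51 on the log2 scale. Mrpl39, which is mitochondria-specific, had 1.49, 23.1 and 12.4 CPM per kb, with replicate 1 far below the others.

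At the low end of the tested large-subunit genes, Mrpl32, with a near-identical copy over 25.2% of its transcript, had 3.6, 4.48 and 0.550 CPM per kb. Mrpl1, which forms the L1 stalk, had 1.48, 2.86 and 3.47 CPM per kb. Mrpl42 had 0.448, 7.64 and 7.41 CPM per kb, so its low mean came from replicate 1. Mrpl17, which sits near the exit tunnel, had 84, 1718 and 178 counts, the most of any member in replicate 2. Its level per kb was 2.60, 9.86 and 2.003 CPM, over annotated exons of 7605 bases. With the median length of its coding transcripts in place of all exons, its fitted level was 1.53 rather than -0.69.

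The tested small-subunit genes had fitted levels of -1.79 to -0.07. Mrps22, a mitochondria-specific protein, had 2.66, 8.81 and 7.91 CPM per kb, the highest of them by fitted level. Mrps7, of the head of the small subunit, had 4.32, 23.4 and 0.743 CPM per kb. Mrps24 had 6.11, 10.1 and 0.584 CPM per kb, and was, like Mrps7, lowest in replicate 3. Mrps2 had 1.29, 4.61 and 6.48 CPM per kb, Mrps9 1.68, 2.40 and 5.11, and Mrps27, a pentatricopeptide repeat protein, 0.901, 2.09 and 6.46. Those 3 genes were highest in replicate 3 and lowest in replicate 1. Mrps26 was the lowest by fitted level, with 0.595, 2.58 and 3.20 CPM per kb (level -1.79, SE 0.80, adjusted p = 0.465, limma).

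Spread between the libraries exceeded counting noise for 29 of 29 members that passed the filter, by a Poisson chi-square test with Benjamini-Hochberg adjustment, where 97.4% of all genes that passed did. The count is thus no result about the members. The log2 range over the libraries ran from 0.51 to 4.84 among them. The widest range was that of Mrps7, with 38, 1109 and 18 counts. Mrpl4, which lines the exit tunnel, had 242, 420 and 28 counts, a range of 4.49, and Mrpl21 had 8, 871 and 157, a range of 4.23. Mrpl2, a core protein next to the catalytic centre, ran the other way, with 195, 83 and 29 counts and 39.3, 3.10 and 2.12 CPM per kb, a range of 4.13. Mrpl42 and Mrpl39 followed at 3.97 and 3.90. Mrpl37, chosen after its values were seen, was like Mrpl2 highest in replicate 1, with 592, 234 and 238 counts. Among all 77 members, Spearman correlations of CPM per kb were 0.28 for replicates 1 and 2, 0.35 for 1 and 3 and 0.42 for 2 and 3. Over 14465 protein-coding genes with a count, which span a wider range of levels, they were 0.70, 0.67 and 0.80. The members share depth and library with all other genes, and these values are a description of sparse counts.

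The paralogs Mrps18a, Mrps18b and Mrps18c descend from 1 bacterial protein family and sit at different places in the ribosome. None of the 3 passed the filter. Mrps18c (chromosome 5, 100798627 to 100804471, plus strand) was at 0, 12.8 and 0.636 CPM per kb. Mrps18a (chromosome 17, 46110986 to 46128910, plus strand), of the large subunit, had 2, 101 and 15 counts, or 0.128, 1.19 and 0.348 CPM per kb. Mrps18b (chromosome 17, 35910379 to 35916389, minus strand) was at 0, 0.104 and 0.0410 CPM per kb. Per kb of exon, the order Mrps18c, Mrps18a, Mrps18b held in replicates 2 and 3. In replicate 3 it rests on the lengths used, since Mrps18c had 8 counts over 1076 exon bases and Mrps18a 15 over 3690. Mrps18b and Mrps18c are among the genes with uncertain counts. Mrps36 had 5, 217 and 39 counts, or 0.925, 7.44 and 2.62 CPM per kb, highest in replicate 2 like most ribosomal members.

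Other genes of the same machinery were read with lists chosen by function. Of 6 ribosome proteins named outside the Mrp scheme, 3 were tested and 0 lay above or below the median tested gene. Aurkaip1, at 2.54, 14.9 and 4.94 CPM per kb, and Dap3, at 2.98, 3.90 and 1.95, were the highest and lowest of these by fitted level. Chchd1 and Gadd45gip1 were at 0 in replicate 1, with 143 and 121 counts in replicate 2. Of 10 mitochondrial translation factors, 5 were tested, 0 lay above and 1 lay below. Mtif2, the initiation factor that brings the first tRNA, was highest at 22.0, 10.2 and 12.4 CPM per kb. Mrrf, which recycles ribosomes, lay below with 0.237, 2.56 and 0.172 CPM per kb (level -3.53, adjusted p = 0.0290, limma). The median translation factor had log2 differences of -5.04, -1.83 and -2.60 from the median tested gene, so replicate 1 was lowest here too.

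Of 20 assembly factors, 18 had a row and 8 were tested, with 0 above and 0 below. Mterf4 was the highest at 10.2, 4.36 and 3.42 CPM per kb, and Nsun4, its partner in assembly, the lowest at 0.354, 0.291 and 2.40. Of 10 genes of mitochondrial transcription and mRNA handling, 7 were tested, also with 0 above and 0 below. The helicase gene Supv3l1 was the highest at 4.76, 1.59 and 10.3 CPM per kb, and the poly(A) polymerase gene Mtpap the lowest at 0.190, 2.32 and 3.98. Of 17 mitochondrial tRNA synthetases, 7 were tested, with 1 above and 0 below, and Tars2 was the lowest at 2.96, 0.882 and 0.148 CPM per kb. Lars2, the leucyl enzyme, lay above at 1349, 143 and 131 CPM per kb (level 5.61, adjusted p = 7.4e-05, limma). Its 63448 counts in replicate 1 exceeded the 3416 counts of all 77 members together, and made up most of the 63831 counts of the 17 synthetases there. Shared exons and copies were sought for the members only. Whether the Lars2 counts hold reads from other sequence was thus not tested.

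Of the 78 genes of the cytosolic ribosome, 75 were tested, and 21 lay above and 0 below the median tested gene, where 9.59% of all tested genes lay above and 3.60% below. Rpl4, of the large subunit, was the highest at 113, 187 and 209 CPM per kb and Rpl34 the lowest at 1.34, 2.40 and 2.46. Of 52 tested oxidative phosphorylation genes, 10 lay above and 0 below, against the same shares of all tested genes. Atp5b, the catalytic subunit of ATP synthase, was the highest at 80.0, 346 and 339 CPM per kb, and Uqcrc1 the lowest at 5.13, 0.443 and 0.662. The difference between these lists and the mitochondrial ribosomal genes was not tested.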

How the data were processed

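The deposited files give read counts per gene symbol, 1 file for each of 3 libraries. Per the submitters' processing notes the tools were STAR 2.0.0e and HTSeq and the build mm10. For annotation, strand setting and filters: not given in the sources used here. Rows that name no gene stayed out of library sizes. From the deposited counts, CPM on TMM-scaled totals (factors 0.793, 1.19 and 1.06) and log2 CPM with a prior count of 2 came from edgeR 4.0.16 (R 4.3.3). Levels were divided by the union of exons in GENCODE vM21 on GRCm38, matched by symbol for 95.7% of the 8510 genes that passed filterByExpr and for all 77 members. That annotation may not be the one behind the counts.

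Levels minus the library's median tested gene were tested with limma 3.58.1 (trend, TREAT at a log2 threshold of 1, Benjamini-Hochberg over 8141 genes, threshold 0.05). P-values measure only the spread between these libraries. Near-identical copies were sought with BLAST 2.17.0 at 95% identity over at least 100 bases. DESeq2 1.42.0 gave alternative size factors.

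Members and lists were chosen with earlier results of these data known. Values are given in full for the 4 highest and 4 lowest tested members of each subunit (7 tested in the small), the 6 with the widest range at a mean of at least 10 CPM, the Mrps18 paralogs and Mrps36, and for the highest and lowest tested gene of each related list. Members at 0 in a library are named with their counts.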

Additional observations from a re-analysis of the deposited data

How the results depend on the processing

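The count of members above the median tested gene was 0. It was 3 of 76 with no filter on low counts, against 17.7% of all tested genes. With the median coding transcript length, a setting chosen after seeing the data, it was 1 of 29 (Mrpl30, level 2.61), against 12%. The count below was 0, but 6 of 76 with no filter, against 16.8% of all tested genes, and 2 of 29 with no length correction, against 5.02%. Leaving out 1 replicate gave 0 above each time, where 7.11 to 14.5% of all tested genes lay above. It gave 0 to 2 below, with 2 of 57 without replicate 1, against 6.09% of all tested genes. The median member's mean difference from the median tested gene was -1.86. It turned to 0.068 with no filter, which lowers the median tested gene by 1.94 on average. With 1 replicate left out the difference ran from -2.70 to -0.40. With no length correction it was -3.39, with the median coding transcript length -2.29, and with at least 10 counts in 2 libraries -1.15. The large-minus-small difference, 1.07 ± 0.17 (SD, n = 3), was 1.64 ± 1.16 with a prior count of 0.5 and 1.28 ± 0.78 with no length correction. It was 0.77 ± 0.15 with libraries thinned, 0.86 ± 0.50 with means, and 1.25 ± 0.22 with subunits by the letter of the symbol. With the longest transcript it was 0.99 ± 0.46, and with the median coding transcript length 1.08 ± 0.74. With 1 replicate left out it ran from 0.89 to 1.12. Members beyond counting noise numbered 29 of 29, against 97.4% of all genes, and 74 of 76 with no filter, against 86.4%. Without replicates 1, 2 and 3 they were 45 of 57, 25 of 26 and 28 of 33, against 84.7, 86.0 and 85.9% of all genes. Without replicate 1, 57 members passed the filter.

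Of 220 fitted levels of 19 named members under the alternatives, 172 kept their direction and their side of the threshold, 5 newly passed the threshold (Mrpl30 as above, Mrpl10 at 3.11, Mrpl30 at 3.4 and Mrpl9 at 2.65 with no filter, and Mrps36 at -3.16 with no length correction) and 43 changed sign. With no filter these were Mrpl1 at 0.66, Mrpl17 at 1.25, Mrpl21 at 1.69, Mrpl32 at 0.43, Mrpl4 at 1.76, Mrpl42 at 0.95, Mrps2 at 1.13, Mrps22 at 1.87, Mrps24 at 1.16, Mrps26 at 0.15, Mrps27 at 0.61, Mrps36 at 0.83, Mrps7 at 1.48 and Mrps9 at 0.82. With at least 10 counts in 2 libraries they were Mrpl17 at 0.041, Mrpl21 at 0.48, Mrpl4 at 0.55, Mrps22 at 0.66 and Mrps7 at 0.27. With the median coding transcript length they were Mrpl17 at 1.53, Mrpl2 at -0.78, Mrpl39 at -0.66, Mrpl4 at 0.36, Mrpl42 at 0.35 and Mrps22 at 0.53. With the longest transcript they were Mrpl2 at -0.14 and Mrpl21 at 0.12, with no length correction Mrpl10 at -0.45, Mrpl2 at -2.04, Mrpl39 at -0.72 and Mrpl9 at -0.26, and with thinned libraries Mrpl2 at -0.16. With 1 replicate left out, the level ran from -1.43 to 0.0028 for Mrpl17, -0.74 to 1.05 for Mrpl2, -1.21 to 1.34 for Mrpl21, -1.66 to 0.76 for Mrpl42, -1.12 to 0.30 for Mrps2, -0.42 to 0.91 for Mrps22 and -0.95 to 0.020 for Mrps36, each positive without replicate 1 except Mrpl2, which was negative there. It ran from -0.49 without replicate 2 to 1.93 for Mrpl39, and up to 1.19 without replicate 3 for Mrpl4 from -0.78, 0.55 for Mrps24 from -0.78 and 0.90 for Mrps7 from -1.67. Beyond the shift of the median gene, the cause was not tested. The 172 unchanged levels include 19 with DESeq2 size factors. They also include 19 with cytosolic ribosomal protein genes and Malat1 left out of the total. Subtracting the median gene leaves levels nearly unchanged in both settings, so these are no separate check. No paired analysis was possible because the study has 1 group. Depth limits the levels of members at 0 counts, most of all in replicate 1.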
